A study of Mus musculus with 3 samples.

Results

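Inflammatory macrophages (Mφ) of the mouse lacrimal gland (LG), which took up 1862 of 19592 cells kept in 3 single-cell libraries, were described here. Members were picked by their transcript counts, given in UMIs (molecular barcodes, with which each captured RNA is counted once). A member held at least 3 UMIs of the Mφ genes Csf1r, Adgre1, Cd14, Lyz2, C1qa and C1qb together, and at least 10 UMIs of the cytokine genes Il1b and Tnf and the chemokine genes Ccl3 and Ccl4 together (the inflammatory sum). It held at most 2 UMIs of Mrc1, Pf4, F13a1 and Cd163, at most 1 of Trem2 and Gpnmb, at most 1 of Plac8 and Ccr2, and 0 of Cd209a, Fscn1, Epcam and Col1a1, which mark other Mφ, monocytes, dendritic cells, epithelium and fibroblasts. "M1-like" stands below for this rule, so the levels of these genes are a description of the choice and carry no test. There were 1046 members in library Female 1, 445 in Male 1 and 371 in Male 2, and values are given in this order throughout.

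Each library was a pool of 6 LGs from 3 C57BL/6J mice that were 2 months old, and the labels name no treatment, mutation or transgene in any group. Female 1 was processed at another core and on another day than Male 1 and Male 2, so sex cannot be told apart from core or day and was not tested. Glands were dissociated with warm enzymes before capture, and pooling leaves no value for a mouse on its own. The labels held in the members, with 3578, 0 and 0 UMIs of Xist and 0, 16 and 17 UMIs of the Y-linked gene Ddx3y. Called barcodes numbered 9737, 6422 and 6899, and they held 63066640, 40609390 and 44661762 UMIs. The median member held 3478.5, 1837 and 1456 UMIs, from 1016.5, 500 and 446 genes. Transcripts of tear-product genes, made by acinar cells and present as free RNA in every droplet, took 30.9, 49.5 and 58.2% of the members' summed UMIs. Per member, the median share was 25.9, 47.2 and 44.8%. Levels are therefore given in CPM (UMI counts scaled by library total) after leaving out 121 tear-product genes. Each captured RNA gives a UMI at its 3′ end, so CPM were not divided by gene length. No member shared its barcode with a member of another library. Among all kept cells, 11 barcodes were shared by Female 1 and Male 1, 17 by Female 1 and Male 2, and 11 by Male 1 and Male 2.

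Mφ are resident phagocytes that sense microbes and injury through Toll-like receptors, which free the transcription factor NF-κB from its inhibitors. NF-κB switches on cytokine genes such as Tnf and Il1b, chemokine genes that call in other leukocytes, and its own inhibitors, which end the response. The word M1 was coined for Mφ activated by interferon and bacterial products, and M2 for Mφ of repair, with Mrc1 among the marker genes of the latter. In the LG, inflammatory Mφ are known from dry eye and Sjögren's disease models. Enzymatic dissociation is itself known to raise immediate early, heat shock and cytokine transcripts.

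The members were chosen by transcripts of known NF-κB target genes, so promoter letters of the genes that the results turn on are shown first. They come from RefSeq (GRCm38.p6), are read 5′ to 3′ on the gene's strand, and end at the base before the start of transcription. Capitals mark matches to the κB consensus, searched on both strands, where matches that overlap form 1 capital run. Il1b and Tnf are the cytokine genes of the rule. Cxcl2, Cxcl10, Ifnb1 and Rel were called higher in M1-like cells than in Mrc1/Pf4 resident-like cells, as given below.
Il1b, chr2:129371140-129371389, minus strand: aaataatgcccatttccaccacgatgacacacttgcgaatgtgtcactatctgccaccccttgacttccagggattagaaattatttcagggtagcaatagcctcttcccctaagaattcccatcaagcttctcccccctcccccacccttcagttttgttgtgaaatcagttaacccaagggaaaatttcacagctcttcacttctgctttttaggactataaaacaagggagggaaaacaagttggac
Tnf, chr17:35202008-35202257, minus strand: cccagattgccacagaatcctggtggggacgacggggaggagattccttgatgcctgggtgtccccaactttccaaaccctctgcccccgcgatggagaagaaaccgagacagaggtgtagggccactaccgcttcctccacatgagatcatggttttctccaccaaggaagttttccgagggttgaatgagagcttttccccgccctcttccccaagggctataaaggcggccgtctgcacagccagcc
Cxcl2, chr5:90903649-90903870, plus strand: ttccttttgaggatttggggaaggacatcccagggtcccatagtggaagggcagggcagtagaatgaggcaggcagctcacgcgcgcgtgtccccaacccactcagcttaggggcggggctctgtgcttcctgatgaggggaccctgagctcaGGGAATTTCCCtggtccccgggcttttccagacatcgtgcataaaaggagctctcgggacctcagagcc
Cxcl10, chr5:92348890-92349139, minus strand: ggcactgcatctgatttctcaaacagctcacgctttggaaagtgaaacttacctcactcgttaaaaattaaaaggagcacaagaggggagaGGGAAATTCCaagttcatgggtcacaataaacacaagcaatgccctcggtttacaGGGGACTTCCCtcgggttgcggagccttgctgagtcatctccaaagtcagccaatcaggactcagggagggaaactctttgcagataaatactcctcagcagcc
Ifnb1, chr4:88522795-88523044, minus strand: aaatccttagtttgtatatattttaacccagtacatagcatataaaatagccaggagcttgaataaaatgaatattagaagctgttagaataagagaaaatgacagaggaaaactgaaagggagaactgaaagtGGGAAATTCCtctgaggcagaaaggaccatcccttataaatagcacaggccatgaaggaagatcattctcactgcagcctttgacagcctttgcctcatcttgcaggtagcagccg
Rel, chr11:23770971-23771219, minus strand: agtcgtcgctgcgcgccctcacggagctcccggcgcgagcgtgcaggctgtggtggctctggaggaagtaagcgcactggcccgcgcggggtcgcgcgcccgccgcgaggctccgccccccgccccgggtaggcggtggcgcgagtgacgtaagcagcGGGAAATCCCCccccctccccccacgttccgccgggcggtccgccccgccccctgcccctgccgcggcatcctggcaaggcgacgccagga
A κB match lay in the 250 bases before the start in 7.25% of all 32851 promoters of the table. Of 20 list genes called higher against resident-like cells, 17 had a promoter in the table and 10 of these held a κB match (Cxcl2, Cxcl10, Ifnb1, Rel, Nfkbia, Nlrp3, Tnfaip3, Tnip3, Ifit2 and Oasl1). The AP-1 motif TGANTCA lay in 6.75% of all promoters and in 4 of these 17, and the CRE motif TGACGTCA in 1.55% and in 0 of 17. Of the 4 genes of the inflammatory sum, Il1b, Tnf and Ccl3 were in the table and had no κB match in this window, and both Il1b and Tnf held a TATAAA match (12.4% of all promoters), from base -31 to -26 and from -29 to -24. Ccl3 (chr11:83647844-83649355, minus strand, GRCm38) and Ccl4 (chr11:83662584-83664683, plus strand) are neighbours on chromosome 11. A match describes letters only and is not evidence of a site. The 17 genes come from lists written with results of these data known, several of them lists of inflammatory genes. A high share of κB matches was thus favoured by the choice of genes and supports no conclusion. List genes that were not called were not searched. A gene counted if any of its starts had a match, while the share of 7.25% counts each promoter.

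Of the cells with at least 3 UMIs of the 6 Mφ genes and no Epcam or Col1a1, M1-like cells made up 71.4% (1046 of 1466, exact 95% binomial interval 69.0 to 73.7), 65.2% (445 of 683, 61.4 to 68.7) and 59.6% (371 of 622, 55.7 to 63.5). They were 12.6, 7.97 and 6.50% of all kept cells. Intervals cover counting error only. With a limit of 20 inflammatory UMIs in place of 10 the shares of Mφ-gate cells were 67.2, 51.0 and 44.1%. The limit of 10 inflammatory UMIs was missed by 137, 173 and 187 Mφ-gate cells, or 9.35, 25.3 and 30.1%, in the order of falling depth. The limit on Trem2 and Gpnmb was missed by 231, 50 and 71, and that on the Mrc1 group by 52, 52 and 17.

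High inflammatory sums were not confined to M1-like cells. At least 10 UMIs were held by 94.1, 73.9 and 73.5% of Trem2-high cells (at least 3 UMIs of Trem2 and Gpnmb, at most 2 of the Mrc1 group) and by 33.3, 29.0 and 25% of Mrc1/Pf4 resident-like cells (at least 5 UMIs of the Mrc1 group, at most 1 of Trem2 and Gpnmb). The share was 90.9, 42.9 and 26.3% in monocyte-gate cells (at least 3 UMIs of Plac8 and Ccr2). It was 0.970, 0.271 and 0.599% in fibroblast-gate cells (at least 5 UMIs of Col1a1, Col1a2 and Dcn, none of Ptprc or Epcam), which should lack these transcripts. M1-like cells made up 66.1, 70.7 and 66.4% of all kept cells with 10 or more.

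Within members, Ccl4, which codes for an inflammatory chemokine, gave most of the sum. Its share of the summed UMIs was 67.6, 62.7 and 61.5%, and it was the top or tied top gene in 98.7, 97.1 and 95.7% of the members. Ccl3, for a related chemokine, gave 23.3, 21.2 and 22.5%, and Tnf, for tumour necrosis factor, 5.64, 6.70 and 7.02%. Il1b, for interleukin-1β, gave 3.42, 9.44 and 9.07% and had no UMI in 33.6, 32.8 and 29.6% of members. The members are thus above all Ccl4-high and Ccl3-high cells. All 4 genes had a UMI in 59.8, 54.8 and 53.6%. The sum had a median of 78.5, 34 and 28 UMIs (5th to 95th percentile 18 to 189, 12 to 78 and 11 to 67.5), or 2.25, 1.76 and 1.90% of a cell's UMIs. Just outside the limit, with 7 to 9 UMIs and all other limits met, lay 18, 27 and 38 cells with a median depth of 2022, 1595 and 1208.5 UMIs. Just inside, with 10 to 12 UMIs, lay 21, 26 and 33 cells with 2472, 1684 and 1384 UMIs. Few cells lay near the limit in Female 1, and more in the male libraries.

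**Figure D1:**
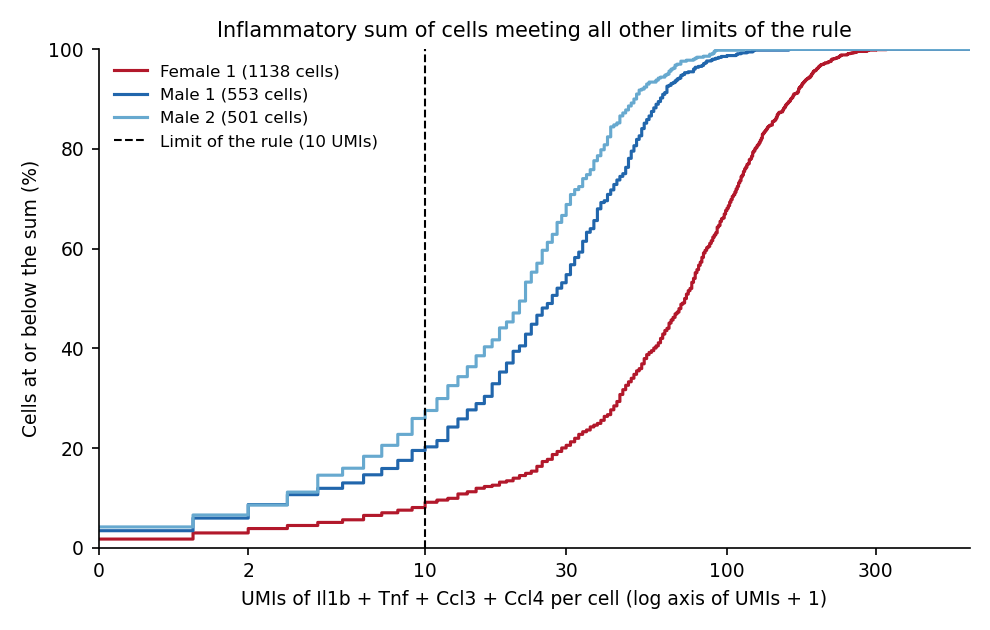
Cumulative percent of cells (vertical axis) at or below each inflammatory sum (horizontal log axis, UMIs of Il1b, Tnf, Ccl3 and Ccl4 plus 1) for cells that met all other limits, with 1 curve a library and the limit of 10 UMIs dashed. The Female 1 curve lies farthest right, with a median of 78.5 UMIs among members against 34 and 28.

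In CPM, Ccl4 stood at nearly the same level in the 3 libraries, with 22832, 23322 and 22461 CPM. Ccl3 stood at 7876, 7868 and 8210 CPM, and Tnf at 1903, 2491 and 2564 CPM. Il1b was lower in Female 1 (1154 CPM) than in Male 1 (3511) and Male 2 (3315). Fibroblast-gate cells held 189, 108 and 113 CPM of Ccl4 and 8.12, 6.54 and 28.2 CPM of Il1b, and free RNA 1922, 777 and 869 CPM of Ccl4. These genes chose the members, so the levels are a description.

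The label was checked against markers. Cd74, for the invariant chain of MHC class II, was found in 99.2, 98.6 and 96.8% of members thinned to 1000 UMIs and in 2.42, 1.14 and 1.92% of fibroblast-gate cells. C1qa and C1qb, for subunits of complement C1q, are part of the rule, and C1qc, for the remaining subunit, which is not, stood at 2440, 2148 and 2031 CPM. Fcer1g and Tyrobp, for adaptors of activating receptors, stood at 2205, 2507 and 2639 CPM and at 1695, 2108 and 1811 CPM. In the male libraries membership rested on fewer counts: 3.92, 19.1 and 25.1% of members held only 3 to 5 UMIs of the 6 Mφ genes.

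Of the markers given for these cells, only Nlrp3, the sensor of the interleukin-1β-processing inflammasome, was not used in the rule. It stood at 130, 541 and 524 CPM (352, 244 and 169 UMIs) in members and at 0.739, 4.90 and 7.68 CPM in fibroblast-gate cells. After thinning every cell to 1000 UMIs it was found in 9.20, 23.0 and 24.6% of members and in 0, 0.490 and 0.275% of fibroblast-gate cells. Before thinning these shares were 25.6, 34.4 and 33.2% of members against 0.171, 0.407 and 0.599%, at a median depth of 3138, 1541 and 1305 UMIs in fibroblast-gate cells. Trem2-high cells, another class of Mφ described below, held Nlrp3 at 103, 482 and 313 CPM, and the gene was not called between them and members.

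Several genes of classical M1 activation were at or near 0. Nos2, for inducible nitric oxide synthase, Il12a, for a chain of interleukin-12, and the scavenger receptor gene Marco had 0 UMIs in all 1862 members. Il6 had 2, 1 and 0 UMIs and the co-stimulatory gene Cd80 had 7, 1 and 1, whereas Il6 stood at 56.6, 168 and 94.7 CPM in fibroblast-gate cells. The 16 genes of the M2 and residency list summed to 881, 592 and 598 CPM in members, and 14 of them had a UMI, with Selenop at 545, 368 and 388 CPM. Arg1 had 2, 0 and 1 UMIs, Retnla 1, 0 and 0, and Lyve1 and Timd4 none. Neutrophil genes S100a8 and S100a9 were in 0 members of any library, which allows a share of cells with a UMI, not of cells expressing the gene, of up to 0.352, 0.826 and 0.989%. The list of 6 neutrophil genes summed to 28.4, 17.7 and 18.6 CPM, and 2 of the 6 had a UMI, among them Csf3r with 76, 8 and 6 UMIs. A UMI of Cd3d, Cd3e, Cd3g or Nkg7 was found in 1.05, 0 and 0.809%, and of the cell cycle genes Mki67 or Top2a in 7.17, 7.42 and 4.31%. The 8 epithelial markers summed to 187, 521 and 533 CPM in members and to 887, 3440 and 3741 CPM in free RNA, and all 8 had a UMI. The fibroblast list summed to 28.8, 93.1 and 211 CPM (6 of 6 with a UMI), the endothelial list to 81.6, 17.7 and 6.20 CPM (5 of 5) and the T and NK list to 18.5, 4.43 and 21.7 CPM (8 of 8). Outside the rule genes, the monocyte list summed to 272, 483 and 636 CPM (6 of 6). The conventional dendritic list summed to 16.3, 53.2 and 52.7 CPM (6 of 7) and the plasmacytoid dendritic list to 503, 563 and 719 CPM (4 of 4).

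The transcription factor NF-κB drives many inflammatory genes, among them those of its own inhibitors. Nfkbia, for the inhibitor IκBα, stood at 2058, 2387 and 2186 CPM, Nfkbiz at 1368, 827 and 800 CPM, and Tnfaip3, for the ubiquitin-editing brake A20, at 698, 663 and 670 CPM. The subunit gene Rel stood at 417, 703 and 549 CPM. The list of 20 NF-κB genes summed to 5408, 5964 and 5519 CPM in members and to 987, 1237 and 1270 CPM in fibroblast-gate cells. Tlr2, for a receptor of bacterial lipoproteins, stood at 373, 441 and 536 CPM. Clec4e, for a receptor of mycobacterial lipids and dying cells, stood at 1.11 CPM in Female 1 and at 109 and 133 CPM in the male libraries. Cflar and Tnfaip8, both brakes on cell death, led the TNF receptor list with 206, 328 and 316 CPM and with 194, 239 and 189 CPM.

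Chemokine ligands outside the rule were abundant too. Cxcl2, for a neutrophil attractant, stood at 3529, 12178 and 9556 CPM, Cxcl10, for an interferon-inducible attractant of T cells, at 2488, 2773 and 2434 CPM, and Cxcl16 at 850, 853 and 884 CPM. Ccl5 stood at 308, 1053 and 1057 CPM and Cxcl1 at 95.7, 971 and 484 CPM. Cxcl2 was found in 57.9, 87.3 and 83.7% of members thinned to 1000 UMIs and in 0.944, 1.31 and 1.10% of fibroblast-gate cells. Cxcl10, Cxcl16 and Ccl12 (327, 344 and 406 CPM) were close between libraries, while Cxcl2, Cxcl1 and Ccl5 were lowest in Female 1.

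Of other cytokine genes, Il1a, for interleukin-1α, stood at 237, 556 and 440 CPM, and Il1rn, for the interleukin-1 receptor antagonist, at 16.3, 151 and 223 CPM. Il12b, for the chain shared by interleukin-12 and interleukin-23, stood at 56.9, 366 and 332 CPM, beside 0 UMIs of Il12a and 5, 3 and 0 UMIs of Il23a, the genes of its partners. Il10, for an anti-inflammatory cytokine, stood at 2.22, 173 and 149 CPM (6, 78 and 48 UMIs), with 0 UMIs in fibroblast-gate cells and in free RNA. Gdf15, a stress-induced cytokine gene, stood at 231, 441 and 518 CPM. Ifnb1, for interferon-β, stood at 748, 401 and 419 CPM and was found in 33.1, 15.2 and 16.3% of thinned members against 0.295, 0 and 0.275% of fibroblast-gate cells. Ifnb1 was thus highest in Female 1, opposite to Il12b, Il10 and Il1rn. Interferon-stimulated genes stood at 846, 1099 and 1153 CPM for Isg15 and at 709, 891 and 794 CPM for Rsad2.

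Antigen presentation was strong in every library. Cd74, for the MHC class II invariant chain, stood at 16566, 19767 and 19661 CPM, H2-Aa at 8310, 7201 and 6862 CPM and H2-Eb1 at 7931, 7205 and 7355 CPM. The list of MHC class II and co-stimulation genes summed to 42528, 43120 and 42745 CPM, against 603, 320 and 422 CPM in fibroblast-gate cells. Cybb, for the oxidase that makes superoxide, led the classical M1 list with 1752, 1161 and 1042 CPM, and Sod2, for a mitochondrial superoxide dismutase, came next with 97.5, 193 and 208 CPM. Selenop and Stab1 led the M2 and residency list with 545, 368 and 388 CPM and with 117, 53.2 and 31.0 CPM. Apoe, for a lipid carrier, stood at 22857, 17664 and 20266 CPM, and Ctss, for a lysosomal protease, at 2649, 2063 and 2074 CPM. C3ar1, for the receptor of the complement fragment C3a, stood at 306, 239 and 260 CPM. Pkm and Ldha, of glycolysis, stood at 148, 211 and 220 CPM and at 103, 117 and 146 CPM. Ptger4 and Entpd1, for a prostaglandin receptor and an ATP-cleaving enzyme, stood at 197, 171 and 177 CPM and at 85.3, 93.1 and 80.6 CPM.

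Inducible heat shock transcripts were highest in Female 1, and not in members alone. Hspa1a, for an inducible heat shock chaperone, stood at 2284, 541 and 781 CPM in members and at 1095, 450 and 453 CPM in fibroblast-gate cells. Its near-identical neighbour Hspa1b stood at 1868, 352 and 552 CPM in members, and reads of the pair may be split unevenly between them. Hspa8, the constitutive relative, stood at 2366, 2128 and 2077 CPM. Atf3, an immediate early transcription factor gene, stood at 2738, 2440 and 2133 CPM, Zfp36, for a protein that speeds decay of cytokine mRNA, at 2251, 1126 and 1070 CPM, and Jun at 1945, 654 and 794 CPM. Fibroblast-gate cells held more Jun (3250, 2231 and 2017 CPM) and less Atf3 (134, 234 and 228 CPM). The part of digestion in these levels was not tested.

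**Figure D2:**
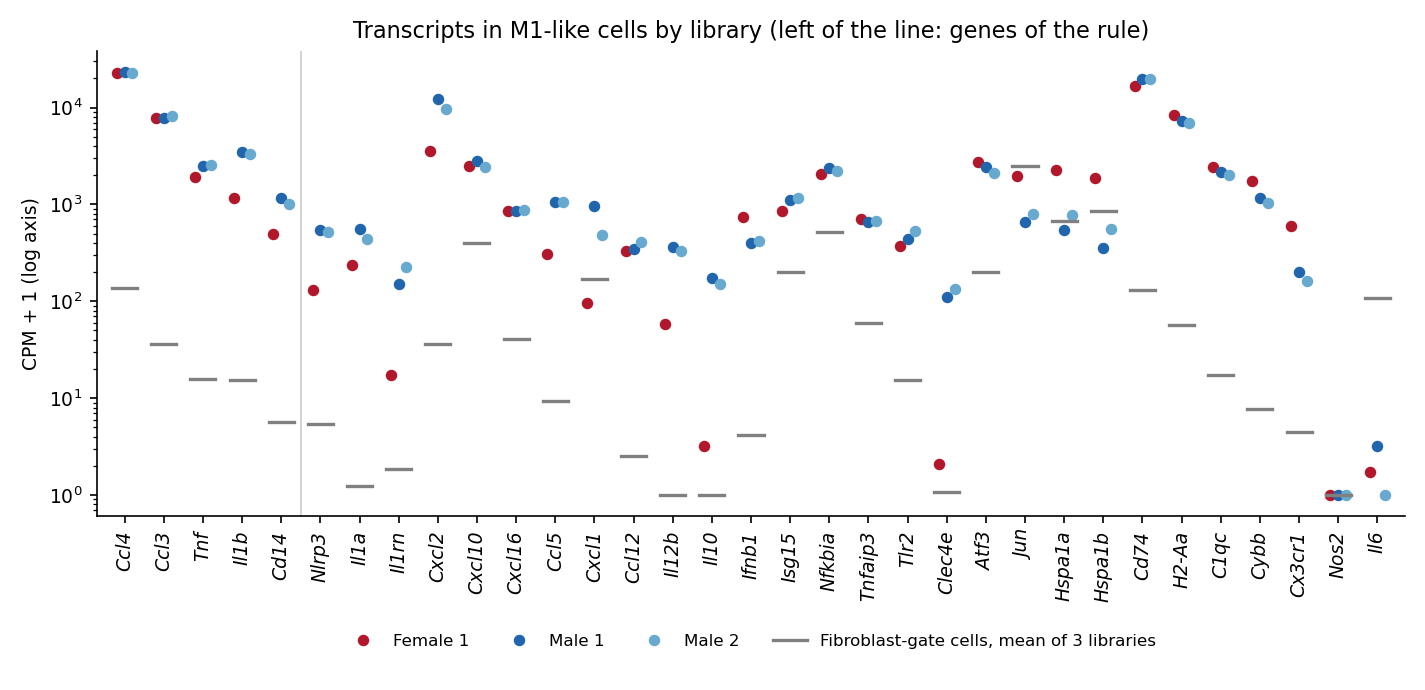
CPM plus 1 on a log axis for 33 genes in M1-like cells, with 1 point a library, grey bars for the mean of fibroblast-gate cells over 3 libraries, and the genes of the rule left of the line. Ccl4 points coincide near 22832 CPM, while Il10 and Clec4e lie far lower in Female 1 than in the male libraries.

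Members held a large share of the gland's UMIs of some inflammatory genes and a smaller share of others. Members held 71.1 ± 4.52% (SD, n = 3 libraries) of all Ccl3 UMIs of the kept cells and 70.0 ± 6.44% of those of Ccl4, which the rule used. Of genes it did not use, they held 74.8 ± 7.90% of Il1a, 71.6 ± 5.84% of Ifnb1, 67.3 ± 6.38% of Cxcl2, 65.2 ± 3.60% of Nlrp3 and 64.6 ± 11.2% of Il12b. They held 39.1 ± 4.79% of Tnfaip3, 27.9 ± 8.06% of Ccl2, 25.5 ± 9.67% of Ccl5, 23.0 ± 11.5% of Cxcl1 and 0.418 ± 0.364% of Il6. They held 54.4 ± 8.14% of Cd74 and 24.2 ± 6.64% of Atf3. For scale, members took 12.99, 6.62 and 5.14% of all UMIs without tear-product genes.

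M1-like cells were next compared with Mrc1/Pf4 resident-like cells, which asks which genes outside the rule differ between these classes. Only the M1-like arm had a lower limit on the inflammatory sum. Genes that go with the sum were thus favoured to be called higher. The resident-like arm was small, with 30, 31 and 4 cells. Nlrp3, Il1a, 4 of 12 NF-κB genes and 5 of 13 genes of the interferon list were called higher in M1-like cells. The interferon list holds interferon-stimulated genes and Ifnb1, the gene of interferon-β itself. Chemokine genes were called in both directions, with 4 of 12 higher and 3 lower, and all 8 tested genes of the M2 and residency list were called lower. Of 2735 genes tested, 5.19% were called (2.71% higher and 2.49% lower in M1-like cells, adjusted p under 0.05 by edgeR's quasi-likelihood test with library as a block), and the median log2 fold change over all genes was 0.12. Of 301 list genes outside the rule, 177 were tested, and 20 were called higher and 20 lower.

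Of 4 tested genes of the interleukin-1 and inflammasome list, Nlrp3 and Il1a were called higher. Nlrp3 stood at 130, 541 and 524 CPM in M1-like cells and at 15.1, 127 and 0 CPM in resident-like cells (5 UMIs in all), a log2 fold change of 3.00 (SE 0.68, adjusted p = 0.000594). Rel, Nfkbia, Tnfaip3 and Tnip3 were the 4 of 12 NF-κB genes called, all higher, and the list's median log2 fold change was 1.21. Rel, for the c-Rel subunit, had 120, 285 and 0 CPM in resident-like cells and a log2 fold change of 2.08 (SE 0.53, adjusted p = 0.00386). Nfkbia, Tnfaip3 and Tnip3 code for proteins that restrain NF-κB. Of 11 genes of TNF receptors and signalling, and of 3 Toll-like receptor genes, 0 were called.

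Of 12 chemokine genes, Cxcl2, Cxcl10, Cxcl16 and Ccl5 were called higher and Ccl6, Ccl7 and Ccl8 lower (4 and 5 genes under total UMIs, a scaling described below). Cxcl2 stood at 3529, 12178 and 9556 CPM against 1024, 5004 and 1804 CPM (log2 fold change 2.34, SE 0.60, adjusted p = 0.00375). Ccl8, for an attractant made by tissue-resident Mφ, stood at 2.96, 33.2 and 68.2 CPM against 723, 5289 and 9696 CPM (log2 fold change -6.71, SE 0.57, adjusted p = 1.28e-28). The chemokine genes thus went in both directions. Of 13 genes of the interferon list, the interferon-stimulated genes Isg15, Ifit1, Ifit2 and Oasl1 were called higher, and so was Ifnb1, which codes for an interferon. Ifnb1 stood at 748, 401 and 419 CPM against 135, 222 and 0 CPM (log2 fold change 2.25, SE 0.55, adjusted p = 0.00232).

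All 8 tested M2 and residency genes were called lower (Mgl2, Stab1, Folr2, Cbr2, Gas6, Selenop, Maf and Fcrls), with a list median of -3.96. Folr2, for a folate receptor of resident Mφ, stood at 0.369, 6.65 and 0 CPM against 105, 443 and 225 CPM. Maf, for a transcription factor of resident Mφ, stood at 101, 37.7 and 62.0 CPM against 1250, 1140 and 902 CPM, and its log2 fold change was -3.60 (SE 0.45, adjusted p = 3.54e-13). These genes tend to go with Mrc1, which the rule used to separate the arms. Of the complement list, C3 and Cfp were called lower, and of 20 genes of lipid handling and the lysosome Cd36, Lpl, Grn and Pltp were called lower.

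Of 10 tested genes of the antigen-presentation list 0 were called (1 by DESeq2), with a list median log2 fold change of 0.78 against 0.12 over all genes. H2-Aa stood at 8310, 7201 and 6862 CPM against 10237, 5543 and 5862 CPM, so the groups overlapped (log2 fold change 0.73, adjusted p = 0.592). Cd74 stood at 16566, 19767 and 19661 CPM against 13323, 10072 and 10147 CPM and was not called (1.39, adjusted p = 0.258). Of 13 heat shock genes 0 were called, and of 20 immediate early genes Ier2 and Atf3 were called higher and Klf2 lower. Cybb was the 1 of 4 classical M1 genes called, higher, with 768, 507 and 676 CPM in resident-like cells. Tgfbr1, for a TGF-β receptor, was the 1 of 19 identity genes called, higher. Igf1, for a growth factor, was called lower. Of the hypoxia and glycolysis list (7 tested), the adenosine, purine and prostaglandin receptors (4) and the cell cycle list (3), 0 were called.

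Outside the lists, genes with the largest differences included several with no UMI in any resident-like cell. Against a floor of 3 UMIs over the group, Mmp12, for Mφ elastase, was at least 14.2-fold higher (1445 UMIs in M1-like cells), and Il12b at least 4.18-fold higher (426 UMIs). The floor gave at least 2.06-fold for Tctex1d2, 2.03-fold for AA467197, 1.81-fold for F11r and 1.69-fold for Alcam, all called. Tmem119 (1 UMI in resident-like cells), Runx3, for a transcription factor of leukocytes, and Ptk2b, for a kinase, were also called higher, with log2 fold changes of 4.22, 3.83 and 3.69. Next to Ccl8, Maf, Pltp, Igf1 and Klf2, the genes with the lowest fold changes by the naming rule were Wwp1 (-3.71), Ifitm2 (-2.90), Dab2 (-2.34), Tmcc1 (-2.34) and Lgals1 (-2.23).

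This comparison hung on few cells. Without Female 1 there were 12 genes called higher and 24 lower, without Male 1 there were 0 and 15 (126 at an unadjusted p under 0.05), and without Male 2, whose arm held 4 cells, 276 and 130. Of 53 called genes followed under the alternatives, Cbr2, Ccl8, Cfp, Mgl2 and Wwp1 were called also without each library in turn. Scaling by total UMIs in place of TMM (a scaling that centres most genes) moved the median over all genes to -0.43 and gave 50 genes higher and 196 lower, with 20.3% in place of 52.1% of calls higher. Under it some list medians changed sign. Those of the chemokine, TNF receptor and Toll-like receptor lists went from 0.43, 0.56 and 0.28 to -0.22, -0.07 and -0.24. The 4 NF-κB genes stayed called.

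Trem2-high cells were then compared with M1-like cells. Of the Mφ classes compared here, they had the highest summed level of the lipid and lysosome list. In M1-like cells, 10 of 13 MHC class II genes, 6 of 14 heat shock genes, 8 of 22 immediate early genes and 5 of 13 chemokine genes were called higher, and 18 of 21 lipid and lysosome genes lower. Scaled by each library's total UMIs alone, these counts were 4, 2, 0 and 0 higher and 21 lower. The arm held 102, 23 and 34 cells. Of 4064 genes tested, 9.69% were called (6.59% higher and 3.10% lower in M1-like cells) with a median log2 fold change of 0.07 over all genes. Of 200 list genes tested, 41 were called higher and 34 lower. Both comparisons use the same M1-like counts and are not independent of each other.

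Of 21 tested genes of lipid handling and the lysosome, 18 were called lower and 0 higher, with a list median of -0.99. Ctsd, for the lysosomal protease cathepsin D, stood at 320, 789 and 676 CPM in M1-like cells and at 3132, 6357 and 6127 CPM in Trem2-high cells (log2 fold change -2.93, SE 0.16, adjusted p = 4.95e-67). Fabp5, for a fatty acid carrier, stood at 17.0, 248 and 177 CPM against 177, 2119 and 2818 CPM (-3.23, SE 0.20, adjusted p = 8.58e-54). Both genes were lower in each of the 3 libraries. Ctsb, for cathepsin B, had a log2 fold change of -1.50, Lgals3, for galectin-3, of -1.40, and Apoe of -0.68. Apoe stood at 22857, 17664 and 20266 CPM against 40766, 31883 and 43160 CPM. These genes tend to go with Trem2 and Gpnmb, which separated the arms by rule.

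Of 13 MHC class II and co-stimulation genes, 10 were called higher and 0 lower, with a list median of 0.86. Cd74 stood at 16566, 19767 and 19661 CPM against 9057, 10596 and 8833 CPM (log2 fold change 1.22, SE 0.16, adjusted p = 2.15e-11). H2-Ab1 stood at 7254, 6540 and 6570 CPM against 3970, 3564 and 3108 CPM (1.18, SE 0.16, adjusted p = 5.74e-11). Ciita, for the master regulator of class II genes, was called higher too (1.62), with Cd86 (0.83), Cd83 (0.75) and Icosl (1.36) among the co-stimulation genes. M1-like and Trem2-high cells did not overlap for Cd74, H2-Aa, H2-Ab1 or H2-Eb1. The share of all tested genes without overlap was not counted, so this does not set these genes apart.

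Inflammatory genes outside the rule were called in part. Here too only the M1-like arm had a lower limit on the inflammatory sum, so genes that go with it were favoured to be higher. Of 16 NF-κB genes, Rel, Nfkbid, Nfkbie, Nfkbiz and Tnip3 were called higher, and Rel had a log2 fold change of 1.22 (SE 0.22, adjusted p = 1.49e-06). Of 13 chemokine genes, Ccl5, Ccl9, Ccl12, Cxcl2 and Cxcl10 were called higher and 0 lower (0 and 1 under total UMIs). Cxcl10 stood at 2488, 2773 and 2434 CPM against 2383, 1477 and 1118 CPM (0.81, SE 0.17, adjusted p = 4.95e-05). Il12b stood at 56.9, 366 and 332 CPM against 2.39, 193 and 112 CPM (2.25, SE 0.36, adjusted p = 3.66e-08). Nlrp3 was not called, with 103, 482 and 313 CPM in Trem2-high cells (0.62, adjusted p = 0.0621), nor was Il1a (0.58, adjusted p = 0.0725). Isg15, Ifit2 and Ifnb1 were called higher of 14 genes of the interferon list, and Tlr2 higher and Clec4e, Clec4d and Clec4n lower of 8 pattern receptors.

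Of 14 heat shock genes, 6 were called higher (Hspa1a, Hspa1b, Hspa8, Hsp90aa1, Hsph1 and Dnajb1), and of 22 immediate early genes 8 (Jun, Egr1, Ier2, Ier5, Atf3, Zfp36, Btg2 and Klf6), with 0 lower in either list. Hspa1a stood at 2284, 541 and 781 CPM against 1058, 257 and 134 CPM (1.5, SE 0.20, adjusted p = 2.41e-11). Atf3 stood at 2738, 2440 and 2133 CPM against 2091, 995 and 962 CPM (1.04, SE 0.17, adjusted p = 8.24e-08). Of 5 classical M1 genes, Acod1, for the itaconate-making enzyme, and Slc7a11, for a cystine carrier, were called lower. Il18bp, for the interleukin-18 binding protein, was the 1 of 9 interleukin-1 list genes called, lower, and Tnfaip2 the 1 of 12 of the TNF receptor list, lower. Gdf15 and Igf1 were called lower, and so were Pkm and Pgk1 of 8 hypoxia and glycolysis genes, Stab1 and Fcrls of 5 M2 genes, and Mertk and Cd68 of 20 identity genes, of which Tgfbr2 was higher. Ptger4 was called higher and P2rx4 lower of 5 purine and prostaglandin receptors, and of 3 complement and 4 cell cycle genes 0 were called.

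Outside the lists, Il2ra, for the interleukin-2 receptor α chain, had a log2 fold change of 2.30 (188, 53.2 and 65.1 CPM against 45.5, 0 and 0 CPM). Napsa (2.39), St3gal6 (2.00), Nabp1 (1.91), Cdk14 (1.83) and Gm34084 (1.82) were called higher, and Clec4d (-2.70), Apoc2 (-2.47), Igf1 (-2.41), Pld3 (-2.03), Capg (-1.98), Pla2g7 (-1.91), Lrp1 (-1.86) and Lgals1 (-1.82) lower. The epithelial genes Aqp5 (2.12), Krt18 (1.73) and Fxyd3 (1.18) and the smooth muscle gene Acta2 (2.54, with 3 UMIs in Trem2-high cells) were called higher as well. Beside them, tear-product genes took 30.9, 49.5 and 58.2% of summed UMIs in M1-like cells and 21.8, 39.2 and 38.2% in Trem2-high cells. The 8 epithelial markers summed to 187, 521 and 533 CPM against 86.2, 257 and 313 CPM. The highest doublet scores, for droplets that may hold several cells, fell on 3.92, 4.49 and 6.74% of M1-like cells. They fell on 0% of Trem2-high cells in each library. With those cells left out, 297 genes were called higher and 144 lower. The part of free RNA or of doublets in the calls of epithelial and smooth muscle genes was not tested.

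Without Male 2, 17 genes were called higher and 46 lower, without Male 1 139 and 101, and without Female 1 183 and 71. Of 86 called genes followed, 22 were called also without each library, among them Ctsd, Fabp5, Ctsb, Lgals3, Il12b, Il2ra, Rel, Hspa1a and Hspa1b. Without the library block, 0 were higher and 7 lower. Under total UMIs the median over all genes was -0.36, 43 genes were called higher and 323 lower (11.7% of calls higher in place of 68.0%), Cxcl2 and Klf6 turned to -0.0640 and -0.015, and of the lists above 4 MHC class II, 2 heat shock, 0 immediate early, 0 chemokine and 0 NF-κB genes were called higher. Under the same scaling some list medians changed sign. Those of the chemokine, interferon-stimulated and interleukin-1 lists went from 0.27, 0.41 and 0.39 to -0.19, -0.08 and -0.02. Of the lipid and lysosome genes, 21 were then called lower.

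**Figure D3:**
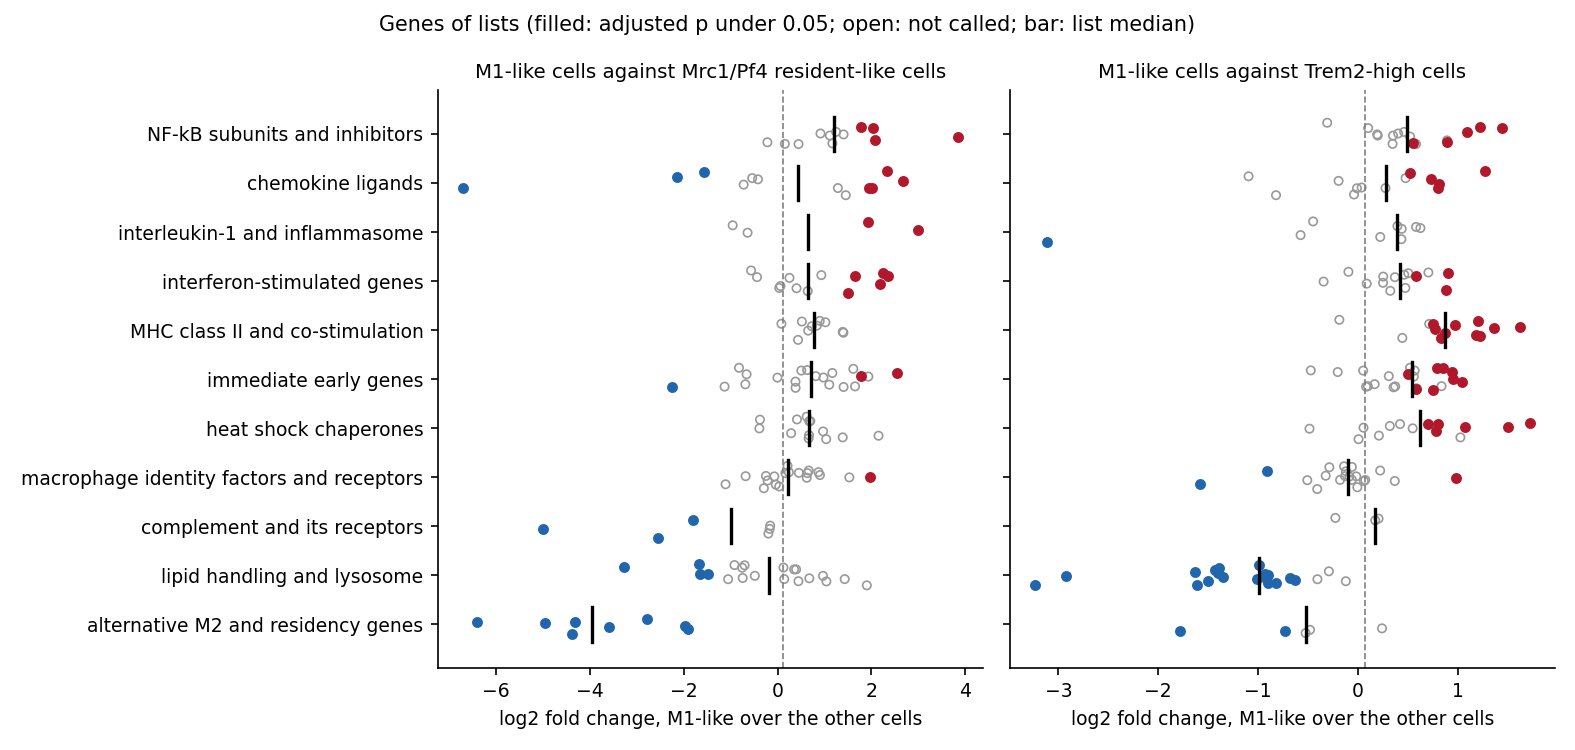
Log2 fold change of each tested list gene in M1-like cells over resident-like cells (left) and over Trem2-high cells (right). Filled points were called (red higher, blue lower), black bars are list medians and the dashed line is the median over all genes, and M2 and residency genes lie far left in the left panel (median -3.96) while lipid and lysosome genes lie left (-0.99) and MHC class II genes right (0.86) in the right panel.

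Levels were also read across the inflammatory sum in all cells that met the other limits, in 6 ranges from 0 to 1 UMIs up to 50 or more. The sum chose the members and deeper cells reach higher sums, so this is a description. The summed chemokine list, which holds no gene of the rule, stood at 3269 CPM in the lowest range and 9343 CPM in the highest in Female 1, at 4287 and 26372 CPM in Male 1 and at 5620 and 22970 CPM in Male 2. The NF-κB list stood at 1634 and 6010 CPM, at 1633 and 6603 CPM and at 1706 and 5871 CPM. Nlrp3 stood at 0 and 147 CPM, at 102 and 746 CPM and at 50.2 and 791 CPM, and Cd14, a rule gene for the lipopolysaccharide co-receptor, at 679 and 523 CPM, at 255 and 1432 CPM and at 201 and 1564 CPM. These genes ran upward with the sum in the male libraries, and in Female 1 all but Cd14. Tear-product shares ran the other way, from 53.8 to 28.8%, from 62.8 to 45.6% and from 67.7 to 46.0%.

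Other genes were lower at high sums or had no common direction. The M2 and residency list stood at 2037 and 837 CPM, at 1786 and 366 CPM and at 1756 and 405 CPM in the lowest and highest ranges. Lyz2, the lysozyme gene of monocytes and Mφ, stood at 1861 and 712 CPM, at 2246 and 586 CPM and at 3412 and 865 CPM. C1qa stood at 3646 and 4073 CPM, at 6277 and 4029 CPM and at 3713 and 4528 CPM, without a common direction. The heat shock list stood at 7418 and 11628 CPM in Female 1 but at 10513 and 6717 CPM in Male 1 and at 8079 and 6810 CPM in Male 2.

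**Figure D4:**
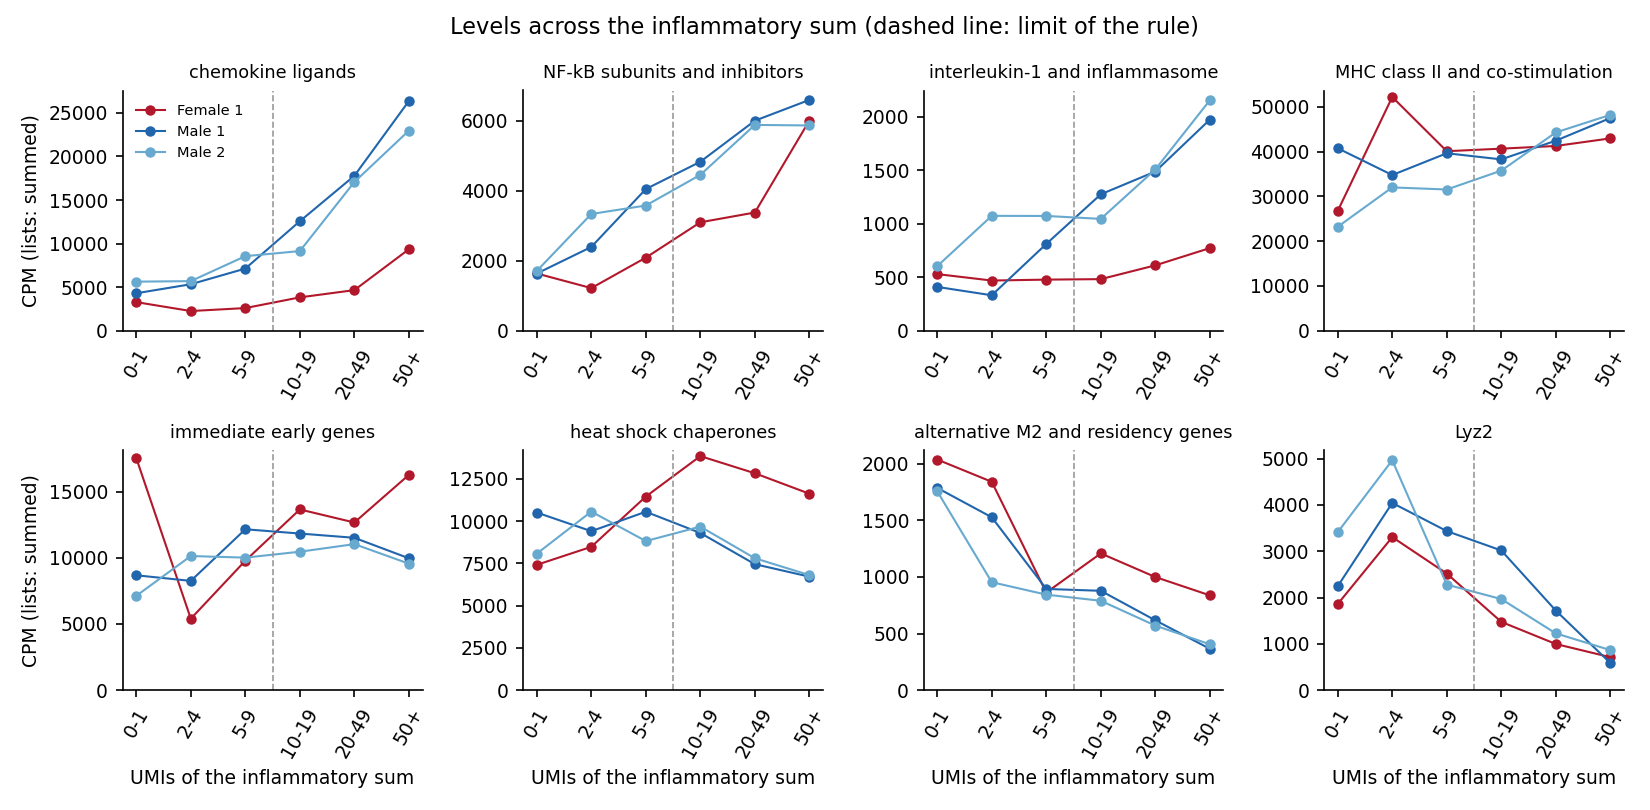
CPM of 7 summed gene lists and of Lyz2 (vertical axes, from 0) in 6 ranges of the inflammatory sum (horizontal axis, UMIs), with 1 line a library and the limit of 10 UMIs dashed. Chemokine and NF-κB lists end higher than they start in each library, from 3269 to 9343 CPM for chemokines in Female 1, and the M2 and residency list ends lower.

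From cell to cell, members were graded rather than alike. In members thinned to 1000 UMIs (1044, 440 and 349 cells, which share a library and a depth), Ccl3 and Ccl4 went together with a Spearman's rho of 0.66, 0.61 and 0.63 and were both found in 93.4, 91.6 and 88.8%. Tnf followed Ccl4 with 0.35, 0.32 and 0.35 and Il1b with 0.20, 0.17 and 0.22. These 4 genes chose the members, so these values are a description only.

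Female 1 and the male libraries, set side by side without a test, differed for several genes in members and in Trem2-high cells alike. Il1rn stood at 16.3 CPM in Female 1 members against 151 and 223 CPM in male ones, and at 23.9 against 289 and 425 CPM in Trem2-high cells. Nlrp3 stood at 130 against 541 and 524 CPM in members and at 103 against 482 and 313 CPM in Trem2-high cells. Cxcl1 stood at 95.7 against 971 and 484 CPM in members and at 132 against 995 and 492 CPM in Trem2-high cells. Lgals3 stood at 528 against 2019 and 1960 CPM in members. The opposite order was seen for Hspa1a, Zfp36, Ifnb1 and Cx3cr1, a fractalkine receptor gene, which stood at 596, 199 and 161 CPM in members.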

How the data were processed

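The authors made UMI counts per gene and barcode from 10x libraries with Cell Ranger 6.1.2 against mm10, as the methods and submitters' notes give it, and the deposited counts were used as they stand, before the authors' decontamination and doublet removal, which were not repeated. Counts of called barcodes were the same in the deposited full set. The limits of the study on cells were kept: over 500 UMIs, over 200 genes and a mitochondrial share under 15%. Free RNA was read from uncalled barcodes with 10 to 100 UMIs. UMIs were summed per library and arm and tested with edgeR 4.0.16 (R 4.3.3; filterByExpr, TMM, glmQLFit, glmQLFTest, Benjamini-Hochberg) with library as a block, since both arms of a library come from 1 suspension. Levels, shares and thinned cells were computed with numpy 2.4.6 and scipy 1.17.1, and doublet scores, left out only as an alternative, with scanpy 1.11.5.

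The 22 genes of the gates stayed in the fit and got no test in the text. The p-values set the difference between arms within a library against its spread over 3 libraries. That spread was estimated with information shared over genes, so very small p-values do not rest on the 3 libraries of a gene alone. Members and lists were chosen with earlier results of these data known, so no p over a list is given. List genes may be named, at least the 2 with the highest mean CPM of each list, and, per comparison, the 10 highest and 10 lowest log2 fold changes among called genes that changed the same way in 3 of 3 libraries and had at least 100 UMIs. Mitochondrial, ribosomal protein, tear-product and sex-linked genes were not named that way. Other genes named were chosen after their values were seen. Tested on simulated counts, the fit against resident-like cells recovered 8% of genes changed 2-fold and 48% of those changed 4-fold, and that against Trem2-high cells 12% and 68%. The simulation gave every gene the same spread beyond counting error and left out differences between libraries, so recovery in the data may differ. Alternatives were DESeq2 1.42.0, total-UMI scaling, no count filter, no block, other cell filters, free RNA subtraction and each library left out. Positions are from GENCODE (GRCm38). Intervals are exact binomial ones. Results for a few list genes are not reported here.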

Additional observations from a re-analysis of the deposited data

Results flagged for a closer look

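Cxcl2 was flagged in the comparison of M1-like with Trem2-high cells, because its CPM ratio was slightly negative in Female 1 and positive in both male libraries. Over all 3 libraries its log2 fold change was 0.52 (adjusted p = 0.0136 by edgeR's quasi-likelihood test). With 10 CPM added, the log2 ratio of M1-like over Trem2-high cells was -0.06 in Female 1, 0.29 in Male 1 and 0.65 in Male 2. These ratios lack the TMM scaling of the test, and that of Female 1 is too small to show a reversal. The difference between the female and the male libraries was not tested, and it rests on 1 female library.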

How the results depend on the processing

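The numbers of members stayed within 1.5 times under every alternative. Their share of Mφ-gate cells moved to 73.7, 71.3 and 68.8% (Female 1, Male 1, Male 2) with a limit of 5 inflammatory UMIs, to 67.2, 51.0 and 44.1% with 20, and to 90.6, 76.6 and 77.8% when every cell was thinned to 1000 UMIs with a limit of 3.

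Against resident-like cells (74 higher, 68 lower), higher genes numbered 124 among cells of 1000 to 4000 UMIs, 189 without tear-product genes, 125 with free RNA subtracted and 0 to 276 with a library left out. Lower genes numbered 38 with DESeq2, 196 under total UMIs and 15 to 130 with a library left out. List genes (20 and 20) numbered 39 higher without tear-product genes and 37 lower under total UMIs, and 0 to 48 higher and 6 to 30 lower with a library left out.

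Against Trem2-high cells (268 higher, 126 lower), higher genes numbered 152 with DESeq2, 43 under total UMIs, 87 without the count filter, 165 among cells of 1000 to 4000 UMIs, 143 with free RNA subtracted and 17 to 183 with a library left out. Lower genes numbered 65, 323, 31, 87 and 68 under the same settings and 46 to 101. List genes (41 and 34) numbered 27, 8, 15, 24 and 30 higher and 6 to 27 with a library left out, and 24, 50, 12, 27 and 20 lower and 16 to 30.

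Without the replicate block the pairing of arms within a library was ignored, and against Trem2-high cells 0 genes were higher and 7 lower (347 at an unadjusted p under 0.05), with 0 and 3 list genes. Against resident-like cells 66 were higher and 51 lower without it. Of the named genes, Cxcl2 (-0.0640) and Klf6 (-0.015) reversed against Trem2-high cells under total UMIs. For both comparisons, fewer genes tested is part of the construction of the depth and free RNA settings, and for the others the cause was not tested. The resident-like arm held 6909 UMIs from 4 cells in Male 2, which limits what it can show.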
